A study of Rattus norvegicus with 6 samples.

Results

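Cardiac calcium handling was described here through 5 genes, Atp2a2, Pln, Ryr2, Casq2 and Slc8a1. The samples were cultures labelled as fibroblasts that had been given water or pertussis toxin, and many fibroblast and cardiomyocyte markers were bright in them. All probe sets of the array whose annotation names exactly 1 of these genes were taken, which gave 12 of 8740 probe sets and 5 of 4736 genes measured, with 4 for Atp2a2, 5 for Slc8a1 and 1 each for Pln, Ryr2 and Casq2. The cells were primary cultures from ventricles of Sprague-Dawley rats aged 1 to 2 days, the strain being written as SD for PTX replicate 3. The control group was 3 cultures that received water, and the PTX group was 3 cultures that received pertussis toxin (PTX) for 24 h, at a dose not given in the sources used here. PTX attaches ADP-ribose to the alpha subunits of Gi and Go, so that receptors can no longer activate these G proteins. Each culture was read on its own 1-colour array, and the labels do not say whether cultures of a group came from separate isolations, so the spread behind each p-value is that between these cultures and may be technical.

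In heart muscle, each beat starts when calcium entering from outside opens the ryanodine receptor Ryr2, a release channel in the sarcoplasmic reticulum, the calcium store of the cell. Casq2 encodes cardiac calsequestrin, the protein that binds calcium inside that store. For relaxation, the pump SERCA2, encoded by Atp2a2, returns calcium to the store, phospholamban (Pln) restrains the pump until protein kinase A phosphorylates it, and the sodium-calcium exchanger Slc8a1 moves calcium out of the cell. Atp2a2 has a form that most cell types use as well, whereas Pln, Casq2 and Ryr2 are known chiefly from muscle.

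The 250 bases before the RefSeq gene start (assembly GRCr8) are shown for Atp2a2, Pln and Casq2, the genes whose signals were bright on all 6 arrays. The stretches lie at chr12:39733269-39733518, chr20:33172244-33172493 and chr2:192214306-192214555, all on the + strand and read 5′ to 3′. Capitals mark matches, on either strand, to the E-box CANNTG, the GC box GGGCGG and the binding motif CTAAAAATA of the muscle factor MEF2. A half-site of the cAMP response element (TGACG), the M-CAT element (CATTCC), the TATA box (TATAAA) and the motif AGATAA of GATA factors were searched too, and these letters are not in the 3 stretches.
Atp2a2: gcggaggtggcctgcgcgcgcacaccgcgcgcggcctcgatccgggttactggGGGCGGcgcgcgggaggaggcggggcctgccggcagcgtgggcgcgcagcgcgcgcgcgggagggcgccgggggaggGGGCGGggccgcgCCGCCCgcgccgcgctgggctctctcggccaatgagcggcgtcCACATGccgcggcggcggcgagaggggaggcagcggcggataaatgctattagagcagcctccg
Pln: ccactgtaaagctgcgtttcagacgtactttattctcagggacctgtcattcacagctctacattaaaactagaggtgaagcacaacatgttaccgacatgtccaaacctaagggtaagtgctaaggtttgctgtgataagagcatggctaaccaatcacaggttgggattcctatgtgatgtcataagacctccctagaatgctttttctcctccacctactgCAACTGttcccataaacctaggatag
Casq2: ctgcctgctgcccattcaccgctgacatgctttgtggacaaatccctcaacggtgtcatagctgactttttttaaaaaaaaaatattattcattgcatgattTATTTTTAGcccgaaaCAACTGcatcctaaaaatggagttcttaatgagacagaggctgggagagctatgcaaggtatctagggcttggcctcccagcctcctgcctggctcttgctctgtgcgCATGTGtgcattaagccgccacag
The Atp2a2 stretch, with 80% G and C, held 3 GC boxes and 1 E-box, and the Pln stretch, with 44%, held 1 E-box, which lay 26 bases before the start. The Casq2 stretch, with 46.4% G and C, held 2 E-boxes and a MEF2 match that began 148 bases before the start. The stretches of Ryr2 and Slc8a1, not shown, held 1 E-box each. That of Ryr2 also held 3 GC boxes, and that of Slc8a1 a TGACG match that began 245 bases before the start. Of 33469 stretches of the same length, 65.5% held an E-box, 30.5% a GC box, 18.2% TGACG and 0.442% the MEF2 letters. A match is a description of the letters, not a site shown to act in these cells.

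None of the 5 genes passed the test between PTX and control, Ryr2 being below the filter on low signals and so left out of the main fit. Of the 12 probe sets, 9 passed that filter and were tested together with all others by limma on log2(signal + 16), and 0 of 9 had a Benjamini-Hochberg adjusted p under 0.05, against 0.0763% of the 5244 probe sets tested. At an unadjusted p under 0.05 there were again 0 of 9, where 12.6% of all tested probe sets stood. The adjusted p of the 9 ran from 0.507 to 0.931. Their log2 changes ran from -0.35 to 0.25 with a median of -0.04, beside a median of -0.02 over all tested probe sets. By direction, 4 were positive and 5 negative, the negative ones being 4 of Slc8a1 and 1 of Atp2a2. In bulk cultures, fewer cells of a type and less RNA per cell cannot be told apart.

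Among the arrays, control replicate 1 stood apart. With log2 values of all probe sets, it correlated at 0.952 to 0.960 with the remaining arrays, which correlated at 0.978 to 0.985 with one another. Values without it are given beside many of the results below. The median signal of the 6 arrays lay between 63.1 and 68.85, the deposited signals had nearly equal trimmed means, and precision is limited by there being 3 arrays a group. As for the labelled cell type, all 13 measured fibroblast markers passed the filter, as did all 16 measured of 18 cardiomyocyte markers. On every array 13 of the cardiomyocyte markers and 8 of the fibroblast markers ranked within the brightest 5%. RNA of cardiomyocyte markers was thus present in these cultures labelled as fibroblasts, which gives no share of cells. The summed signal of the cardiomyocyte markers was 333863 to 426571 in the controls and 287225 to 325700 with PTX, with 0 markers at a signal of 0. It was highest on control replicate 1, and the other controls also lay above every PTX array. That of the fibroblast markers was 101761 to 119893 and 105040 to 108928. Of the 16 cardiomyocyte markers 12 had negative log2 changes, with a median of -0.19, or -0.09 without control replicate 1. Of the 13 fibroblast markers 6 were negative, with a median of 0.06, and of all tested probe sets 52.9% were negative. Of the smooth muscle markers 4 of 4 passed the filter, of the macrophage markers 4 of 6 measured, and of the endothelial markers 1 of 3 measured, Pecam1 and Vwf being below it. What part the cell makeup of the cultures has in the values of the 5 genes was not tested.

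**Figure D1:**
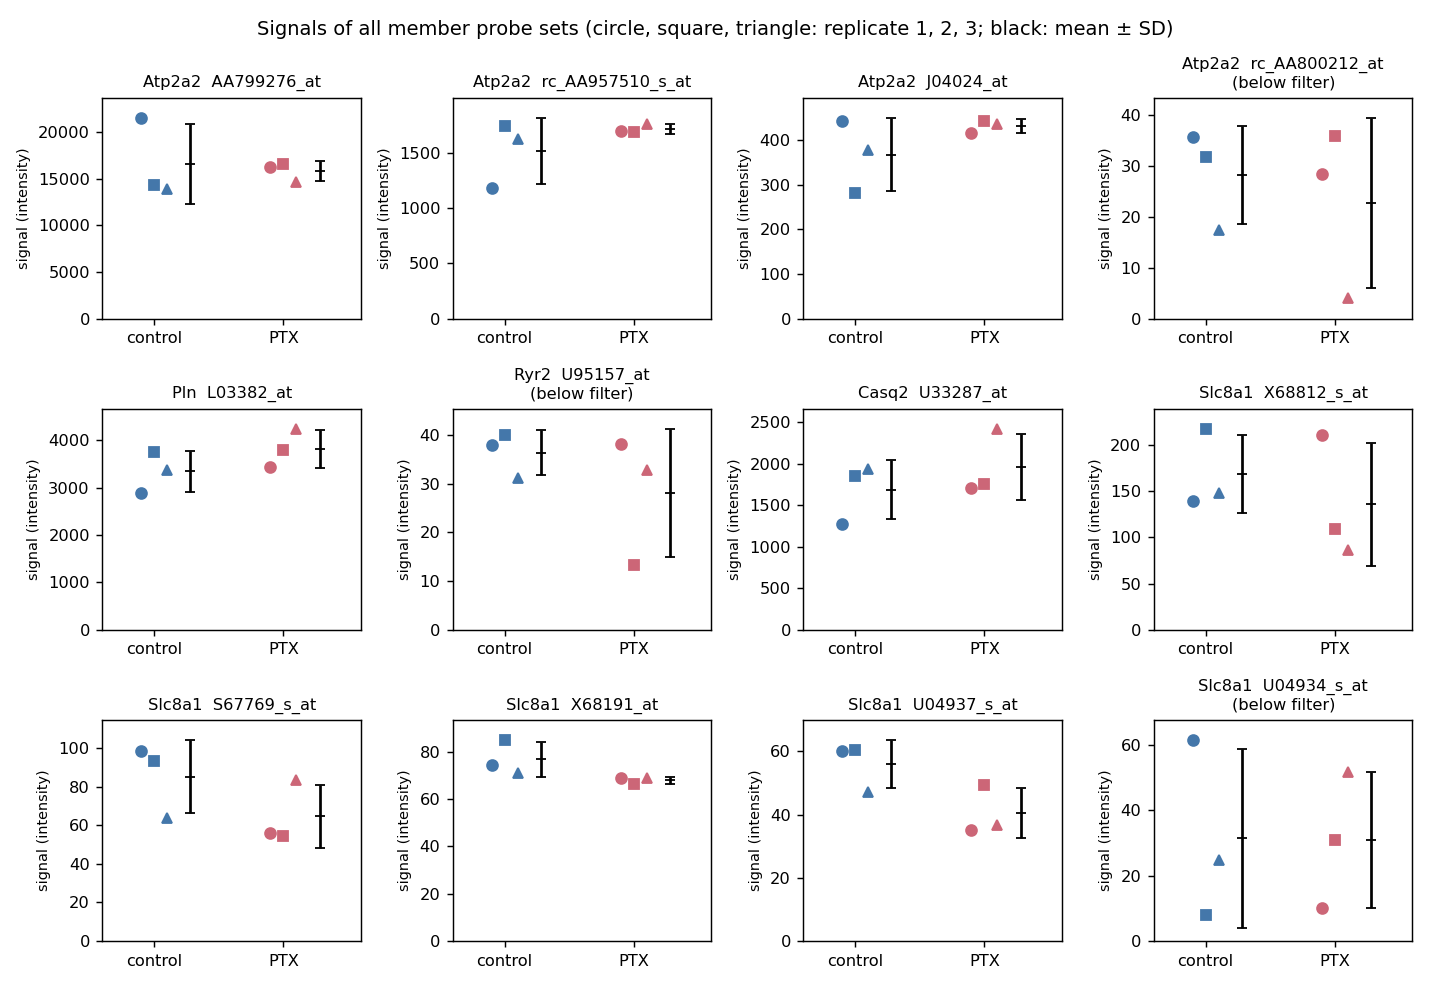
Deposited signal (linear intensity, axes from 0) of each of the 12 probe sets, with circle, square and triangle for replicates 1, 2 and 3 of the control (blue) and PTX (red) cultures and black bars for the mean ± SD of 3. The groups overlap in every panel except that of Slc8a1 X68191_at, and control replicate 1 is the highest array for Atp2a2 AA799276_at and the lowest for Atp2a2 rc_AA957510_s_at, Pln and Casq2.

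Atp2a2, the gene of the SERCA2 pump, had a very bright probe set, AA799276_at. Its signals were 21516, 14367 and 13857 in control replicates 1 to 3 and 16267, 16578 and 14638 in PTX replicates 1 to 3. The PTX values lay inside the range of the controls, with a mean of 15828 ± 1042 against 16580 ± 4282 (SD, n = 3 each). The log2 change was -0.04 ± 0.18 (SE), or 0.973-fold with a 95% interval of 0.732 to 1.29 (limma adjusted p = 0.931). Control replicate 1 was 1.52 times the mean of the other control arrays, and without it the log2 change was 0.16 (adjusted p = 0.477). The sign also turned with quantile normalization (0.12), cyclic loess normalization (0.10) and array quality weights (0.12).

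A second Atp2a2 probe set, rc_AA957510_s_at, whose name marks probes shared by more than 1 transcript, had signals of 1179, 1744 and 1622 in the controls and 1698, 1681 and 1762 with PTX. Here control replicate 1 was the lowest of the 6 arrays, at 0.701 times the mean of the other controls, the opposite of the brightest probe set of the same gene. The remaining 5 arrays lay within 1622 to 1762. The log2 change was 0.20 ± 0.17 (adjusted p = 0.602). It was 0.03 without control replicate 1 and 0.31 without control replicate 2.

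The third, J04024_at, had signals of 444, 281 and 379 in the controls and 416, 444 and 437.5 with PTX. The 3 PTX arrays were close together, with a coefficient of variation of 3.45%, and control replicate 1 was level with the highest of them. The log2 change was 0.25 ± 0.18 (adjusted p = 0.556). Without control replicate 1 it was 0.39, with an adjusted p of 0.244, the lowest that any member reached by leaving out an array, and with array quality weights it was 0.42 (adjusted p = 0.188). Without control replicate 2, the low array, it was 0.073. The fourth, rc_AA800212_at, was below the filter, with signals of 17.4 to 35.7 in the controls and 4 to 35.8 with PTX. The 3 tested probe sets of the pump gene therefore had log2 changes of -0.04, 0.20 and 0.25, none past the threshold, and disagreed on whether control replicate 1 was high or low. Which transcript form each probe set of Atp2a2 or Slc8a1 reads was not determined, so they may not read the same transcript.

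Pln, which encodes phospholamban, was read by L03382_at at 2897, 3765 and 3370 in the controls and 3441, 3792 and 4239 with PTX. The highest value was on PTX replicate 3 and the lowest on control replicate 1, and the groups overlapped. The mean was 3344 ± 435 in the controls and 3824 ± 400.2 with PTX, a log2 change of 0.20 ± 0.14, or 1.15-fold with a 95% interval of 0.909 to 1.44 (limma adjusted p = 0.556). Without control replicate 1 the log2 change was 0.10, and without PTX replicate 3 it was 0.12. Pln had the smallest SE of the 9 tested probe sets, so its interval is the narrowest of the members.

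Casq2, the calcium-binding protein of the store, was read by U33287_at at 1277, 1857 and 1935 in the controls and 1713, 1759 and 2418 with PTX. PTX replicate 3 was the highest array and control replicate 1 the lowest, as for Pln. The other 4 arrays lay between 1713 and 1935. The log2 change was 0.22 ± 0.21, or 1.17-fold with an interval of 0.835 to 1.62 (adjusted p = 0.640), and it was 0.03 without control replicate 1 and 0.062 without PTX replicate 3.

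Ryr2, the release channel, had a single probe set, U95157_at, and it was dim. Its signals were 37.9, 40 and 31.2 in the controls and 38.2, 13.3 and 32.8 with PTX. PTX replicate 2 was the low array, and the other 5 lay within 31.2 to 40. The mean log2 value of the probe set was 5.56, just under the filter at 5.62, which corresponds to a signal of 33.3. In the fit without the filter the log2 change was -0.29 ± 0.30 (adjusted p = 0.756). It also passed the filter where the rc_AA799 and rc_AA800 probe sets were removed first, and did not pass the test there. Near the background such signals carry little order, and probe sets differ in how strongly they bind, so this dim signal does not place Ryr2 below the other genes.

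Slc8a1, the sodium-calcium exchanger, was read by 5 probe sets, all dim to moderate, of which 4 were tested. The brightest, X68812_s_at, had signals of 139.5, 217 and 148 in the controls and 211, 109 and 86 with PTX. The PTX arrays differed 2.45-fold among themselves, more than the group means of 168 ± 42.4 and 135 ± 66.4 differed. The log2 change was -0.35 ± 0.31 (adjusted p = 0.626). It was -0.68 without PTX replicate 1 (unadjusted p = 0.0323, limma adjusted p = 0.684), -0.10 without PTX replicate 3 and -0.16 without control replicate 2.

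S67769_s_at had signals of 98.7, 93.2 and 63.7 in the controls and 56, 54.5 and 83.5 with PTX, a log2 change of -0.33 ± 0.24 (adjusted p = 0.554). U04937_s_at had signals of 60.2, 60.5 and 47.3 against 35, 49.5 and 36.8, a log2 change of -0.35 ± 0.23 (adjusted p = 0.507). In both, 1 PTX array, replicate 3 and replicate 2 respectively, reached above the lowest control. With 1 array left out the log2 changes ran from -0.49 to -0.23 and from -0.47 to -0.29.

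X68191_at had signals of 74.6, 85 and 71 in the controls and 68.9, 66.4 and 68.9 with PTX. This was the 1 of the 9 tested member probe sets whose groups did not overlap, with all PTX arrays lower, and 10.6% of all tested probe sets stood apart in that direction. The gap between the groups was 71 against 68.9, and the log2 change was -0.14 ± 0.18 (adjusted p = 0.724), or -0.079 without control replicate 2. No member stood apart in the higher direction, as 12.0% of all tested probe sets did. The fifth, U04934_s_at, was below the filter and ranged from 8 to 61.4 in the controls and 10 to 51.8 with PTX. In the fit without the filter its log2 change was 0.04 ± 0.50 (limma adjusted p = 0.988), opposite in sign to the tested Slc8a1 probe sets. Leaving out control replicate 1 gave 0.48.

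All 4 tested Slc8a1 probe sets had negative log2 changes, with a median of -0.34, or -0.27 without control replicate 1. They share 1 target gene, and 3 of the 4 have names that mark shared probes, so they are not separate replicates of a change. Among tested probe sets not named rc_, as all those of Slc8a1 are, 34.8% were positive. The median log2 change of that class was -0.10, or -0.053 without control replicate 1. Pln (0.20), Casq2 (0.22) and Atp2a2 J04024_at (0.25) belong to it as well and were positive, and Atp2a2 AA799276_at (-0.04) was negative. What part the class has in the Slc8a1 values was not tested. The log2 changes of these 4 Slc8a1 probe sets kept the same sign under each alternative in which they were tested. That of the fifth, below the filter, was positive.

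**Figure D2:**
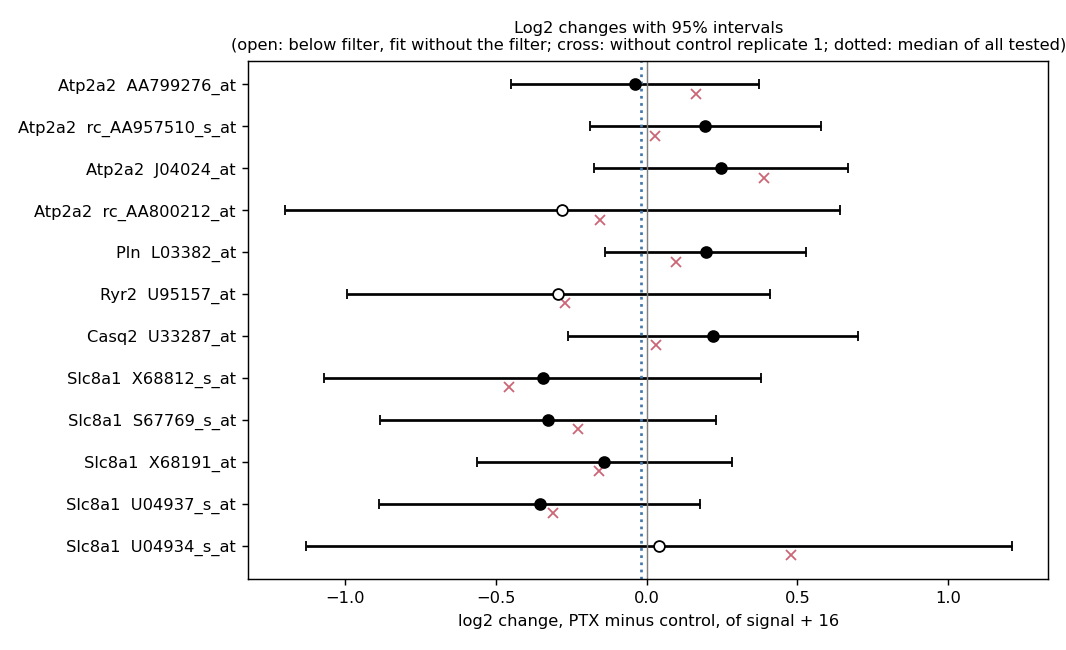
Log2 change of each probe set, PTX minus control, on the scale of log2(signal + 16), with 95% intervals from limma (points), and the value without control replicate 1 (crosses). Open points are the 3 probe sets below the filter, from the fit without it, and the dotted line is the median of all tested probe sets, -0.02; every interval includes 0.

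The pump, its restraint, the release channel and the exchanger were also set against each other as log2 differences on the same array. A factor that scales a whole array nearly cancels in such a difference where both signals are far above the pseudocount added before the log. For a probe set as dim as that of Ryr2 it cancels only in part. The log2 difference Pln minus Atp2a2, each by its brightest probe set, was -2.89, -1.93 and -2.03 in the controls and -2.24, -2.12 and -1.78 with PTX. Control replicate 1 was the low array, and the other 5 lay between -2.24 and -1.78. The mean was 0.23 higher with PTX and did not pass an exact permutation test (two-sided p = 0.7, adjusted p = 0.7 over 3 such differences). Without control replicate 1 it turned to -0.067. With the mean of all probe sets of each gene, dim ones included, it was 0.16. For Slc8a1 minus Atp2a2 the difference was -0.31 (exact permutation p = 0.6, adjusted p = 0.7). Leaving out the first replicate of either group gave -0.62, leaving out control replicate 2 gave -0.037, and the mean of all probe sets gave -0.26. For Ryr2 minus Atp2a2 it was -0.25 (exact permutation p = 0.5, adjusted p = 0.7), but -0.44 with a pseudocount of 1 and -0.094 with 64, so that near the background the pseudocount sets its size. It was -0.43 without control replicate 1 and -0.32 with the mean of all probe sets. With 3 arrays against 3 this test cannot give a p below 0.1. These differences compare how a pair moved between groups and do not give the ratio of transcripts.

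For 8 of the 12 probe sets the difference between the group means was smaller than the larger of the 2 group SDs, the other 4 being those of Pln and of Slc8a1 S67769_s_at, U04937_s_at and X68191_at. Over the 3 controls the signal of the brightest Atp2a2 probe set spanned 1.55-fold, that of Casq2 1.52-fold and that of Pln 1.30-fold. Over the 3 PTX arrays they spanned 1.13-fold, 1.41-fold and 1.23-fold. Pln, Casq2 and Atp2a2 rc_AA957510_s_at shared their lowest array, control replicate 1, and their highest, PTX replicate 3. The median cardiomyocyte marker went the other way on these arrays, with a centred log2 value of 0.27 on control replicate 1 and -0.21 on PTX replicate 3. Of 16 cardiomyocyte markers 9 were highest on control replicate 1 and 3 lowest, and of all tested probe sets 35.5% and 29.6%. Whether the array or the culture behind control replicate 1 set these values was not tested.

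**Figure D3:**
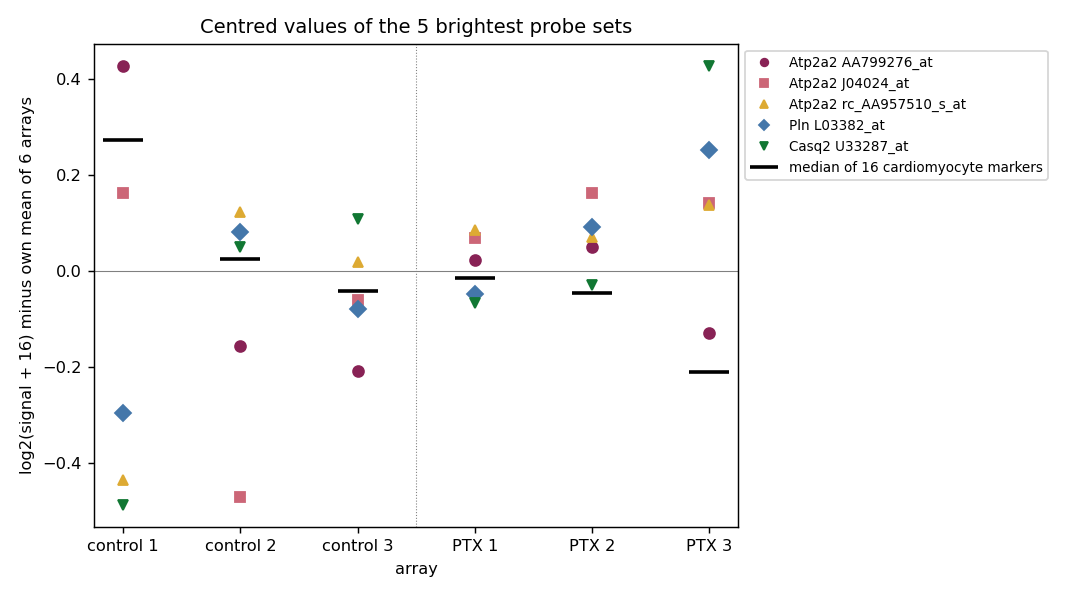
Values of the 5 brightest member probe sets on each array, as log2(signal + 16) minus the probe set's own mean over the 6 arrays (symbols), with the median of the 16 measured cardiomyocyte markers (bars). On control replicate 1, Atp2a2 AA799276_at is at 0.43 and the cardiomyocyte median at 0.27, while Pln, Casq2 and Atp2a2 rc_AA957510_s_at are at -0.30, -0.49 and -0.43.

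Probe sets with the most similar profile were found by the root mean square difference of centred log2 values over the 6 arrays, among 4372 tested probe sets with 1 gene symbol. The genes named are those with the smallest differences for each member, picked for that, and what a similar profile means was not tested. For Atp2a2 AA799276_at these were Psme1 (0.036), Higd2a (0.037) and Tcap (0.042), the last on a probe set named rc_AA799. Psme1, the nearest, had signals of 7540, 4878 and 4666 in the controls and 5490.5, 5579.5 and 4707 with PTX. Tcap had signals of 1207, 773 and 728 in the controls and 907, 878 and 833 with PTX. In both, control replicate 1 was again high. For Pln they were Cyp7b1 (0.037), Pawr (0.050) and Lox (0.055), and for Casq2 Lamp2 (0.074), Hsd17b12 (0.078) and Hspa5 (0.080). For Slc8a1 X68812_s_at the nearest were Ywhaq (0.16), Strn3 (0.19) and Clta (0.20). Each member's own spread on this scale was 0.21 for Atp2a2, 0.17 for Pln, 0.27 for Casq2 and 0.43 for Slc8a1. Ryr2 had no tested probe set to compare.

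Around the 5 genes, a wider list of 60 calcium handling genes was examined, of which 45 were measured by 89 probe sets. Of these probe sets 56, from 36 genes, passed the filter, and 0 passed an adjusted p of 0.05 with limma in either direction, the smallest adjusted p being 0.269. At an unadjusted p under 0.05, 3 were higher and 4 lower, where 7.97% and 4.61% of all tested probe sets stood. The median log2 change was 0.0050 over the list, with 28 positive and 28 negative. The groups did not overlap for 7 higher and 4 lower probe sets of the list, beside the 12.0% and 10.6% of all tested ones given above. All 4 lower ones with an unadjusted p under 0.05 belong to Fkbp1a.

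Fkbp1a encodes the immunophilin FKBP12, which binds ryanodine receptors. Its probe set rc_AI176170_at had signals of 4134, 2909 and 3250 in the controls and 2216, 2226 and 2430 with PTX, so that all 3 PTX arrays lay below all controls. The log2 change was -0.57 ± 0.15 (unadjusted p = 0.00640, limma adjusted p = 0.269). The others, D86641_at, rc_AI228738_s_at and rc_AA875594_s_at, had -0.44, -0.40 and -0.33, also without overlap of the groups, and adjusted p of 0.302, 0.397 and 0.366. Without control replicate 1 the 4 log2 changes were -0.42, -0.37, -0.23 and -0.26 in the same order. The probe sets share 1 gene. Fkbp1b, the form known to bind the cardiac ryanodine receptor most tightly, was below the filter, with mean signals of 21.8 in the controls and 17.7 with PTX.

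The 3 higher probe sets were of Orai1, Sri and Itpr1. Orai1, the pore of the store-operated calcium entry channel, had 101, 129 and 136.5 in the controls and 242, 191 and 180 with PTX (log2 change 0.67 ± 0.18, adjusted p = 0.270). Sri, encoding sorcin, a calcium-binding protein that acts on ryanodine receptors, had 496, 645 and 616 against 839, 772 and 773 (0.44 ± 0.15, adjusted p = 0.324). Itpr1, an inositol trisphosphate receptor and release channel of many cell types, had 180, 192 and 278 against 311, 284 and 324 on J05510_at (0.49 ± 0.19, adjusted p = 0.366), and its other 4 probe sets were below the filter. In all 3 the groups did not overlap. Orai1 is read by a probe set whose name begins with rc_AA800 and Sri by one beginning with rc_AA892. The 375 tested probe sets named rc_AA799 or rc_AA800 had a median change of 0.56 on the log2 scale (0.27 with control replicate 1 left out), and the 420 named rc_AA892, rc_AA893 or rc_AA894 one of 0.29 (0.16). Without that array Orai1 had 0.56, Sri 0.33 and Itpr1 0.38. What part these classes have in the values of Orai1 and Sri was not tested.

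By role, the 2 tested probe sets of other calcium pumps, Atp2a3 (-0.48) and Atp2b1 (-0.27), were negative (limma adjusted p = 0.534 and 0.684). That of Atp2a3 was dim, with 68.5, 78.1 and 33.7 in the controls and 27, 31.2 and 56.1 with PTX, so the groups overlapped. Without control replicate 1 the log2 changes were -0.38 and -0.020. The other pump probe sets, 12 of 14, were below the filter. Among luminal buffers, Calr, encoding calreticulin, had log2 changes of -0.044, -0.0017 and 0.26 on its 3 probe sets, or 0.00078, 0.051 and 0.35 without control replicate 1. Casq1, the skeletal muscle calsequestrin, had 652 on control replicate 1 against 3276 and 3297 on the other controls and 2698, 2539 and 2952 with PTX. Its log2 change of 0.50 turned to -0.27 without that array. Jph2, which holds the store membrane close to the cell surface, had 2519, 2760 and 2863 in the controls and 3347, 3186 and 3081 with PTX (0.24 ± 0.12, adjusted p = 0.430), on a probe set named rc_AA799.

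For the sodium pump, whose gradient drives the exchanger, Atp1b1 had 8139, 9008 and 15032 in the controls and 14262, 14506 and 13312 with PTX on its brightest probe set (log2 change 0.44, adjusted p = 0.439, or 0.27 without control replicate 1). Control replicate 3 lay with the PTX arrays there. Fxyd1, encoding phospholemman, the sodium pump's own regulator, had -0.12 and 0.08 on its 2 probe sets, or -0.0077 and 0.12 without control replicate 1. Of the phosphatase subunits, Ppp1ca had 0.01, and Ppp1cb had -0.23 on one probe set and 0.35 on another. These were 0.11, -0.13 and -0.11 without control replicate 1, so the last changed sign. The 9 tested probe sets of calcium entry channels had a median of 0.01, the 16 of calmodulin, kinases and phosphatases 0.06, and the 5 of the beta-adrenergic receptor and protein kinase A -0.01. These medians were 0.17, 0.02 and -0.02 without control replicate 1.

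**Figure D4:**
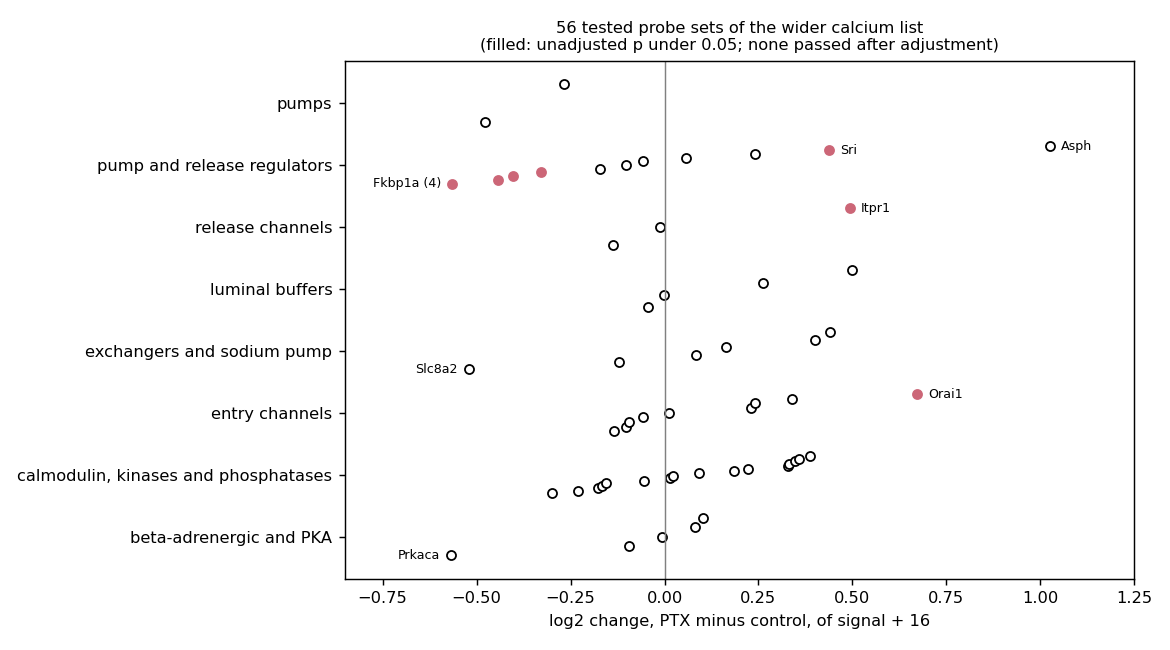
Log2 change, PTX minus control, of the 56 tested probe sets of the wider calcium list by role, on the scale of log2(signal + 16), each point being 1 probe set. Filled points had an unadjusted p under 0.05 (Fkbp1a on 4 probe sets, Orai1, Sri and Itpr1); the smallest adjusted p was 0.269.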

How the data were processed

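Total RNA of 6 cultures was biotin-labelled and read on 1-colour Affymetrix arrays, per the labels' protocols. The values are probe set signals, linear intensities deposited by the authors and made with GCOS, per the submitters' processing notes. The GCOS version and scaling target are not given in the sources used, and detection calls were not used. The 2% trimmed means were 493 to 495, so no scaling was added. Groups and replicate numbers came from the sample titles.

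Of 8740 probe sets 7006 have 1 gene symbol in the platform annotation, and 6985 of these were updated through the Entrez identifier with RefSeq names (GRCr8). Probe sets whose mean log2(signal + 16) was below the 40th percentile of all were dropped, and the other 5244 were fitted with limma 3.58.1 in R 4.3.3 (eBayes with an intensity trend, two-sided, Benjamini-Hochberg over all, threshold 0.05). Folds are on that scale and understate changes of low signals. The fit was tested on simulated data, with changes larger than those of the members put on 200 probe sets. That test did not cover changes as small as those of the members, or an array that stands apart. Permutation tests used scipy 1.17.1.

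The members and lists were chosen with earlier results of these data known. Named genes of the wider list are those with an unadjusted p under 0.05 and the 8 with the highest mean. Other genes named by role, and Fkbp1b, were chosen after their values were seen. Alternatives covered pseudocounts, filters, normalizations, the variance model, array weights, the replicate block, a probe set class and each array left out.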

Additional observations from a re-analysis of the deposited data

How the results depend on the processing

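No member and no probe set of the wider calcium list passed under any of the 18 alternatives with limma, the smallest adjusted p being 0.188 for the members and 0.0614 for the wider list. At an unadjusted p under 0.05 there were 0 or 1 member probe sets and 3 to 12 probe sets of the wider list. Arrays with the same replicate number did not deviate together from their group means (correlations -0.093, -0.11 and -0.0080). Such weak values do not show whether same-numbered cultures shared an isolation. With the replicate block 0 probe sets were higher (373 at an unadjusted p under 0.05) and 0 member probe sets were called. Over all probe sets, the 4 higher calls became 2 with a pseudocount of 1 or quantile normalization, 7 with a pseudocount of 64, 9 with robust variances, 8 without the rc_AA799 and rc_AA800 probe sets and 0 without a trend (405 at an unadjusted p under 0.05). With array quality weights 66 were higher and 15 lower. Leaving out 1 array gave 0 to 98 higher and 0 to 18 lower, with 98 and 18 without control replicate 1, 29 higher without control replicate 3, and 0 higher without PTX replicate 1, 2 or 3 (216, 253 and 227 at an unadjusted p under 0.05). The median of the tested members moved from -0.04 to 0.20 with the 60th percentile filter, which left 6 member probe sets and dropped 3 of the 4 of Slc8a1.

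Atp2a2 AA799276_at turned to 0.12 with quantile normalization, 0.10 with cyclic loess and 0.12 with array quality weights, and ranged from -0.15 to 0.16 with 1 array left out, being 0.16 without control replicate 1 and 0.02 without PTX replicate 3. The within-array difference Pln minus Atp2a2 ranged from -0.067 (without control replicate 1) to 0.41, and Ryr2 minus Atp2a2 from -0.43 to 0.051 (without PTX replicate 2), with 1 array left out. Slc8a1 minus Atp2a2 ranged from -0.62 to -0.037 in the same way. The cause of these turns was not tested. The other 8 tested member probe sets kept their sign under each alternative that tested them. Signals near the background limit what can be said of Ryr2 and of the dim Slc8a1 and Atp2a2 probe sets.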
